A study of Mus musculus with 6 samples.

Results

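The genes described here are the Wnt ligands, their receptors and co-receptors, their secreted antagonists, the transcription factors Tcf7 and Lef1, and the target gene Axin2. They were measured in mammary glands of MMTV-FOXC1 transgenic and wildtype mice at lactation day 2. Members were chosen by name only, as rows whose gene name starts with Wnt, Fzd, Sfrp or Dkk followed by a number, or is Lrp5, Lrp6, Axin2, Lgr4, Lgr5, Tcf7 or Lef1. This gave 44 of the 21950 genes in the table: 19 Wnt ligands, 10 frizzled receptors, 4 Sfrp and 4 Dkk antagonists, the co-receptors Lrp5 and Lrp6, the R-spondin receptors Lgr4 and Lgr5, the transcription factors Tcf7 and Lef1, and Axin2.

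All animals were FVB/NJ mice of postnatal week 11 at lactation day 2, with 3 samples labelled transgenic and 3 labelled wildtype. Transgenic mice carried a human FOXC1 cDNA with a Myc tag behind the MMTV promoter, which is active in luminal epithelial cells and is driven by steroid hormones. The study kept 2 transgenic lines, and which of them gave these samples is not given in the sources used here. RNA came from tissue slides, and the values are RPKM, reads scaled to exon length and to the total of mapped reads. The labels name epithelial cells, but markers of adipocytes, fibroblasts and lymphocytes were present beside the keratins of luminal and basal cells, so that the values describe whole mammary tissue.

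Wnt proteins are secreted, lipid-modified signals. In canonical signalling a Wnt binds a frizzled receptor together with Lrp5 or Lrp6, β-catenin is spared from the destruction complex, and it enters the nucleus to act with Tcf7, Lef1 and related factors on targets such as Axin2, which feeds back on the pathway. Sfrp proteins bind Wnts outside the cell, Dkk1 blocks Lrp5 and Lrp6, and R-spondins acting through Lgr receptors keep frizzled receptors at the surface. In the mammary gland Wnt4 acts downstream of progesterone in ductal side branching, and Wnt signals maintain basal stem cells.

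The depth recovered from the RPKM steps was 11770867 to 11775866 reads in the transgenic columns and 3492861 to 3496335 reads in the wildtype columns, 3.37 times deeper in transgenic mice. The 3 columns of a genotype differed no more than repeated draws of reads from 1 library would, with a chi-square per degree of freedom of 1.06 over 16270 genes in transgenic and 1.02 over 13295 genes in wildtype columns. Over the members the same quantity was 1.10 in transgenic columns (38 genes) and 0.873 in wildtype columns (23 genes). Each genotype is for this reason treated as a single library (n = 1), no p-value is given, and every interval below that is not said to be over columns is a 95% counting interval that compares the 2 libraries and covers no variation between animals. A gene is called here when the log2 of (RPKM + 1) in transgenic over wildtype mice passes 2 in size and its mean is at least 2 RPKM in either genotype, which 13118 genes reach. Milk protein transcripts took 0.291% of transgenic and 43.2% of wildtype reads over genes. On the library-size scale of the deposited RPKM the median log2 change over genes was 1.06, and leaving 9 milk protein genes out of the library size changes the scaling by 0.81 in log2. Each change is for this reason also given on a relative scale, after a median-of-ratios shift of 1.20 in log2 (2.30-fold) over 16096 genes with reads in both genotypes. Mouse Foxc1, which is no direct measure of the human transgene, had 9.07 RPKM in transgenic and 2.37 RPKM in wildtype mice. Its log2 change was 1.58 on the library-size and 0.61 on the relative scale.

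Of the 44 members, 25 reached the minimum level and 19 did not. On the library-size scale 7 of the 25 were called higher in transgenic mice, where 16.1% of all genes tested were called higher, and 0 were called lower, where 1.23% of all genes were. The 7 were Tcf7, Axin2, Wnt5b, Lef1, Fzd7, Dkk3 and Wnt7b. On the relative scale 3 members were called higher (Tcf7, Axin2 and Wnt5b), against 4.33% of all genes, and 2 were called lower (Lgr4 and Sfrp1), against 3.52%. At a threshold of 1 on the library-size scale, 16 members were called higher and 2 lower, against 52.7% and 3.51% of all genes. The transgenic columns lay above all wildtype columns for 22 of the 25, against 83.6% of all genes, and below them for 2, against 9.67%. The median log2 change of the 25 was 1.32 on the library-size scale, beside 1.06 over all genes tested, and 0.33 on the relative scale, beside 0.06. With the 2 members that had no wildtype read (Wnt7b and Wnt16) set to the limit of 3 reads, the median stayed at 1.32.

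**Figure D1:**
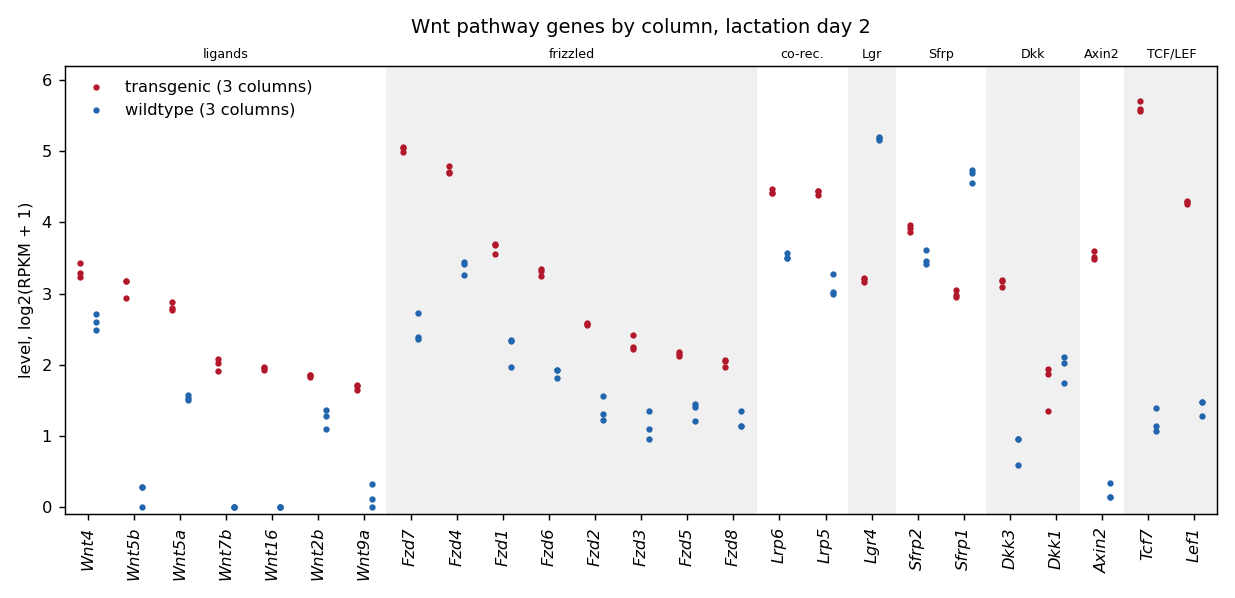
Level of each of the 25 members that reached 2 RPKM, as log2(RPKM + 1), in the 3 transgenic columns (left of each pair) and the 3 wildtype columns (right), grouped by role. Lgr4 and Sfrp1 stand lower in transgenic than in wildtype columns, the columns of Dkk1 overlap, and the other 22 members stand higher in every transgenic column, as did 83.6% of all genes tested.

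The promoters of 4 of the 5 members called on the relative scale are shown because these genes carry the strongest differences, together with the motif that forkhead factors such as FOXC1 bind and the motif of Tcf7 and Lef1. The sequences are from RefSeq (GRCm38.p6) and run 5′ to 3′ on the strand of the gene, with 250 bases before and 50 bases after the start. Capitals mark GTAAA, the core of forkhead sites, or CTTTGAT, the core of TCF/LEF sites, on either strand. Neither string contains the other. The windows are chr11:108920099-108920398 (plus strand) for Axin2, chr11:52282546-52282845 (minus strand) for Tcf7, chr6:119449337-119449636 (minus strand) for Wnt5b and chr2:109917397-109917696 (plus strand) for Lgr4.
Axin2: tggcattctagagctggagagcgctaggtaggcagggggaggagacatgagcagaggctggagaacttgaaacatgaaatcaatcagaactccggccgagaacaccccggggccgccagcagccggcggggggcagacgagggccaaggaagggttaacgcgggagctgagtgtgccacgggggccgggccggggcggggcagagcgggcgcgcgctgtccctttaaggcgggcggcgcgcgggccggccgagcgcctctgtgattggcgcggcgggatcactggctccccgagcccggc
Tcf7: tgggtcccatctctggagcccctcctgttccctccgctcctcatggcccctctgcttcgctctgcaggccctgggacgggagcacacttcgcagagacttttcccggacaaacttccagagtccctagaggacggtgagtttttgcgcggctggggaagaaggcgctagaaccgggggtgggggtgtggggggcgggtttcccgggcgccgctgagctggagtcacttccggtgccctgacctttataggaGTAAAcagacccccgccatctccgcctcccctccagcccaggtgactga
Wnt5b: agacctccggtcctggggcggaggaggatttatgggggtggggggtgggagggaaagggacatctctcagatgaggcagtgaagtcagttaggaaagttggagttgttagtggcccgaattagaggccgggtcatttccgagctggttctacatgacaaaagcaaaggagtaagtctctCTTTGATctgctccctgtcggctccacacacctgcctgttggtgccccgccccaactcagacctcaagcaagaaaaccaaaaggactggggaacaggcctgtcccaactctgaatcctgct
Lgr4: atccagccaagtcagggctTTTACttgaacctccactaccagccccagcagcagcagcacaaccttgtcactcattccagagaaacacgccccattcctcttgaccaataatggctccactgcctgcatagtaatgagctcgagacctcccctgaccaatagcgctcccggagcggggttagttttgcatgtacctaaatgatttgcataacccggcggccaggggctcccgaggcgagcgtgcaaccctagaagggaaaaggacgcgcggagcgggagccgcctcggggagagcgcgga
The Tcf7 window holds GTAAA just after the start, the Lgr4 window holds it on the opposite strand near the far end, the Wnt5b window holds CTTTGAT, and the Axin2 window holds neither. The table has promoters for 29 of the 44 members, and GTAAA was in a promoter of 2 of them (6.90%), against 34.7% of 27025 genes. CTTTGAT was also in 2 of the 29 (6.90%, Wnt5b and Wnt11), against 4.29% of all genes. The median GC content was 67.0% over the members' promoters and 52.7% over all promoters. These matches describe letters in a window and say nothing of binding. The windows shown for Tcf7 and Wnt5b lie at starts inside the annotated genes. Tcf7 has a second start in the table, and Wnt5b has 2 more, whose windows hold neither motif. Among these are the windows at the upstream ends of the annotated genes, chr11:52282965-52283264 for Tcf7 and chr6:119544298-119544597 for Wnt5b.

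The transcription factors Tcf7 and Lef1 and the target gene Axin2 were all called higher in transgenic mice on the library-size scale. Tcf7 (ENSMUSG00000000782, chr11:52252371-52283014, GRCm38, minus strand), a TCF factor that also marks T cells, had 47.4, 46.3 and 50.9 RPKM in transgenic columns, against 1.09, 1.63 and 1.20 RPKM in wildtype columns. The 4469 transgenic and 36 wildtype reads gave a 36.8-fold higher level in transgenic mice (26.6 to 52.7), or 16.0-fold on the relative scale (11.6 to 22.9). Tcf7 was the member with the highest level in transgenic mice and the largest log2 change of the 25, 4.41 on the library-size and 3.46 on the relative scale. This rank depends on the pseudocount of 1. At a pseudocount of 0.1 the change of Axin2 was larger, 5.38 beside 5.10 for Tcf7 on the library-size scale. Lef1 (ENSMUSG00000027985), the related factor, had 18.6, 18.6 and 18.1 RPKM in transgenic columns, against 1.43, 1.79 and 1.79 RPKM in wildtype columns. It was 11.0-fold higher (9.40 to 13.0), with a log2 change of 2.86 that fell short of the threshold on the relative scale, at 1.90. Exons of Gm43352 on the other strand overlap 13.7% of its exonic bases, and the counting is not stated to use strand. The ratio of Tcf7 to Lef1 was 2.61 in transgenic and 0.783 in wildtype mice, a 3.34-fold difference (2.31 to 4.96) that no scaling of the libraries can change. TCF/LEF factors outside the list differed less. Tcf7l1, a repressor in many cells, had 21.6 RPKM in transgenic and 4.98 RPKM in wildtype mice. Tcf7l2 had 21.4 RPKM in transgenic and 19.7 RPKM in wildtype mice. The ratio of Tcf7l2 is smaller than the 2.30-fold shift, so that its direction turns on the relative scale.

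Axin2 (ENSMUSG00000000142, chr11:108920349-108950783, plus strand), the feedback inhibitor used as a readout of canonical signalling, had 11.1, 10.4 and 10.2 RPKM in transgenic columns. In wildtype columns it had 0.260, 0.104 and 0.104 RPKM. The columns do not overlap, and the 2055 transgenic and 9 wildtype reads gave a 67.8-fold ratio (35.6 to 148), or 29.5-fold on the relative scale (15.5 to 64.5). Its log2 change was 3.32 on the library-size and 2.69 on the relative scale. The paralog Axin1, the scaffold of the destruction complex, had 19.3 RPKM in transgenic and 4.66 RPKM in wildtype mice, with log2 changes of 1.84 and 0.77. Axin2 reads set against those of the co-receptor Lrp6 were 34.5 times higher in transgenic than in wildtype mice (18.1 to 75.6).

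Several of these differences ran beside lymphocyte and stromal markers. All 11 measured T cell markers reached the minimum level and 9 were called higher on each scale, beside 16.1% of all genes on the library-size and 4.33% on the relative scale, with a summed level of 267 to 280 RPKM in transgenic and 10.3 to 12.1 RPKM in wildtype columns. The 10 B cell markers summed to 236 to 241 RPKM in transgenic and 8.03 to 10.3 RPKM in wildtype columns. The methods state that lymph nodes were taken out, before digestion, of the number 4 glands collected for RNA analysis and progenitor assays. Whether this also holds for the tissue slides that gave the sequenced RNA is not stated. Against Cd3e, a chain of the T cell receptor complex, Tcf7 was 0.608 times its wildtype ratio in transgenic mice (0.324 to 1.10) and Axin2 1.12 times (0.476 to 2.83), while Lef1 was 0.182 times (0.105 to 0.298). The first 2 intervals hold 1 and that of Lef1 does not. Cd3e is only 1 of the 11 markers, and another reference would give other ratios. The sum of the T cell markers was 24.7-fold higher in transgenic mice. Beside this, Tcf7 was 36.8-fold, Axin2 67.8-fold and Lef1 11.0-fold higher. Against the luminal keratin gene Krt8, Axin2 was 8.66 times higher in transgenic than in wildtype mice (4.48 to 19.2). In tissue RNA, more cells of a type and more RNA per cell cannot be told apart, and the part of these cell types in the members' differences was not tested.

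**Figure D2:**
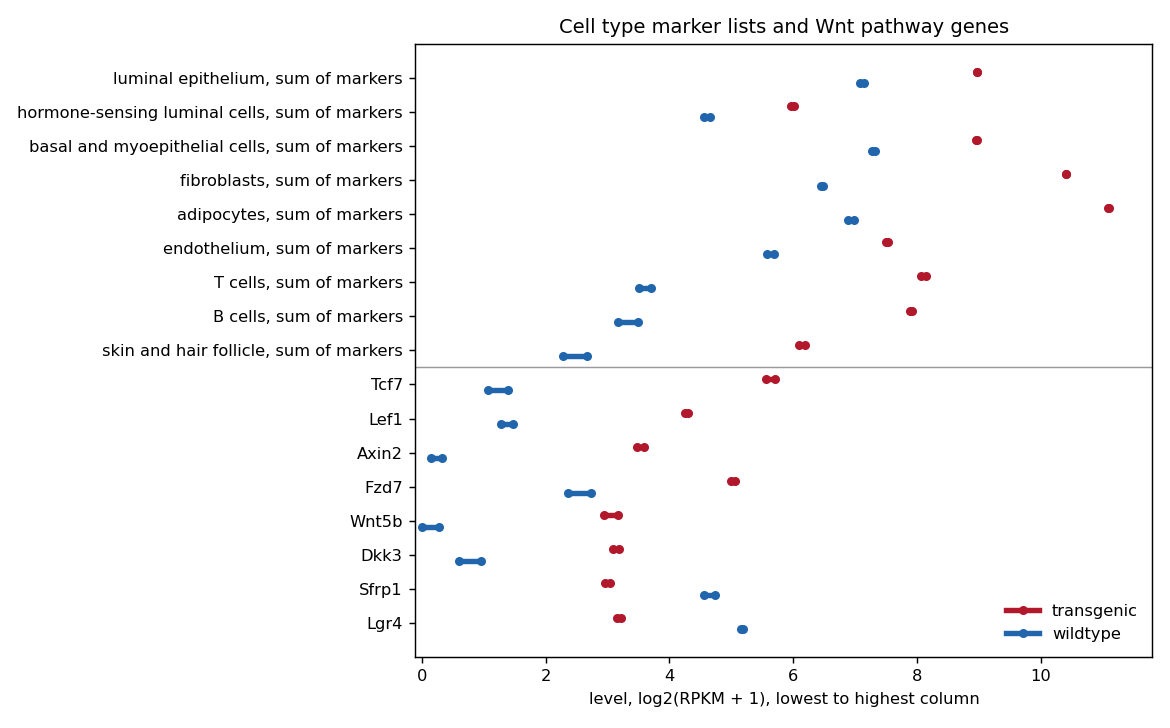
Summed level of 9 cell type marker lists (top) and level of 8 members (bottom), as log2(RPKM + 1), from the lowest to the highest of the 3 columns, with transgenic above wildtype in each row. Marker sums are all higher in transgenic columns, with the widest gaps for adipocytes, T cells, B cells and fibroblasts, while Sfrp1 and Lgr4 are lower.

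Of the 19 Wnt ligands, 17 had reads in transgenic and 10 in wildtype mice, beside 18144 and 16260 of all 21950 genes. The transgenic library was 3.37 times deeper, which by itself lets more genes show reads. Wnt3a and Wnt7a had none in either genotype, which allows up to 0.104 and 0.0902 RPKM in wildtype mice. Wnt4 was the leading ligand in both genotypes, with 8.44, 8.73 and 9.78 RPKM in transgenic columns and 5.53, 4.64 and 5.05 RPKM in wildtype columns. Its columns do not overlap, yet its direction depends on the scale, with log2 changes of 0.72 on the library-size and -0.33 on the relative scale. Its share of the summed ligand RPKM, which no scaling changes, was 22.6% in transgenic and 55.1% in wildtype mice.

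Wnt5b (ENSMUSG00000030170, chr6:119432531-119544347, minus strand), a ligand known mostly for signalling without β-catenin, showed the largest measured difference among the ligands called. It had 8.0, 6.69 and 8.0 RPKM in transgenic columns, against 0.216, 0.216 and 0 RPKM in wildtype columns. Every transgenic column lies far above every wildtype column. The 709 transgenic and 4 wildtype reads gave a 52.6-fold ratio (20.5 to 194), or 22.9-fold on the relative scale (8.89 to 84.2), with log2 changes of 2.90 and 2.30. It took 19.1% of the summed ligand RPKM in transgenic and 1.56% in wildtype mice. Its close relative Wnt5a, a ligand that restrains ductal growth in the mammary gland, had 6.03 RPKM in transgenic and 1.90 RPKM in wildtype mice, with log2 changes of 1.28 and 0.36. The ratio of Wnt5b to Wnt5a was 1.25 in transgenic and 0.0756 in wildtype mice, 16.6 times higher (6.31 to 61.8).

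Wnt7b and Wnt16 had reads in transgenic mice only. Wnt7b, an epithelial ligand in several organs, had 2.75, 3.23 and 3.08 RPKM in transgenic columns and 0 in each wildtype column. Its 471 transgenic reads would have been 140 at the wildtype depth, and the level was at least 46.6-fold higher than the limit of 3 reads over the wildtype library, or at least 20.3-fold on the relative scale. This bound takes the transgenic reads as counted, and the exact 95% lower limit of the ratio, which counts their error too, was 37.7. The call at a log2 change of 2.01 sits at the threshold, and without transgenic column 2 or 3 it was lost. Wnt16, a ligand known for its part in bone, had 2.86, 2.90 and 2.79 RPKM in transgenic columns and 0 in each wildtype column, at least 43.4-fold higher or 18.9-fold on the relative scale (exact 95% lower limit 35.2 on the library-size scale), and at 1.95 it lay just under the threshold. Among all genes at the minimum level, 0.884% had no wildtype read.

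Wnt2b had 2.59 RPKM in transgenic and 1.38 RPKM in wildtype mice, with log2 changes of 0.59 and -0.19, so that its direction also turned with the scale. Wnt9a, with 262 transgenic and 4 wildtype reads, was 19.4-fold higher (7.50 to 71.9) with log2 changes of 1.53 and 1.07. Below the minimum level, Wnt6 had 1.82 RPKM in transgenic and 0.131 RPKM in wildtype mice, on 141 and 3 reads, a ratio of 14.0 (4.68 to 68.4). Wnt2, a ligand of stromal cells in the mammary gland, had 135 transgenic reads and 1 wildtype read, a ratio of 40.1 (7.07 to 1594). Both ratios rest on 3 or fewer wildtype reads, hence the wide intervals. Wnt11 had 61 transgenic reads and 0 wildtype reads, at least 6.03-fold higher than the same limit of 3 reads (exact 95% lower limit 4.76), with Gm8398 overlapping 8.80% of its exonic bases. The ratios of Wnt10a (49 transgenic and 7 wildtype reads) and Wnt10b (29 and 3) had intervals that hold 1 on the library-size scale. Wnt9b had 29 transgenic reads and 1 wildtype read. Wnt3, Wnt8b, Wnt1 and Wnt8a had 18, 11, 7 and 2 transgenic reads and 0 wildtype reads, which at the wildtype depth would have been 5.34, 3.26, 2.08 and 0.594 reads, so that their difference was barely or not detectable there.

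**Figure D3:**
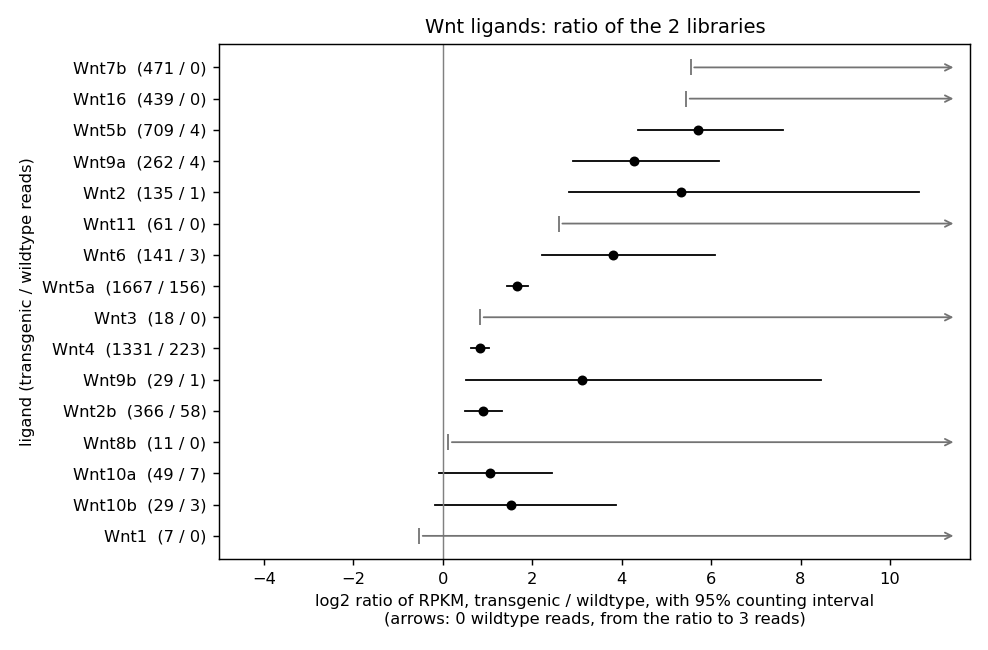
Ratio of RPKM in transgenic over wildtype mice (log2) for 16 Wnt ligands with more than 3 reads in a genotype, with 95% counting intervals, and the transgenic and wildtype reads beside each name. Arrows, for ligands with 0 wildtype reads, start at the ratio to 3 wildtype reads and are not 95% limits: they start at 46.6-fold for Wnt7b and 43.4-fold for Wnt16, and Wnt5b is at 52.6-fold.

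In transgenic mice the order of ligand levels was Wnt4, Wnt5b, Wnt5a, Wnt7b, Wnt16, Wnt2b and Wnt9a. The intervals of Wnt7b, Wnt16 and Wnt2b overlap from neighbour to neighbour, as do those of Wnt2b and Wnt9a. In wildtype mice the order was Wnt4, Wnt5a and Wnt2b, and the last of these overlapped Wnt5a. Summed over the family, the ligands had 39.7 RPKM in transgenic and 9.20 RPKM in wildtype mice, a ratio of 4.31, or 1.88 on the relative scale.

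The frizzled receptors, the seven-pass membrane proteins that bind Wnts, summed to 94.1 RPKM in transgenic and 26.2 RPKM in wildtype mice. The ratio of these sums was 3.60, or 1.56 on the relative scale. Fzd7 (ENSMUSG00000041075, chr1:59482424-59486955, plus strand), a receptor of basal and stem-like cells in the mammary gland, was the one receptor of the 10 that was called. It had 32.2, 30.8 and 32.0 RPKM in transgenic columns, against 5.62, 4.17 and 4.23 RPKM in wildtype columns. It was 6.78-fold higher (5.92 to 7.79), with log2 changes of 2.53 on the library-size scale and 1.44, under the threshold, on the relative scale. Fzd4, the receptor of endothelium in many organs, led in wildtype mice, with 26.6, 25.0 and 24.8 RPKM in transgenic columns and 9.63, 9.86 and 8.55 RPKM in wildtype columns. The interval of Fzd7 in wildtype mice (4.08 to 5.33 RPKM) overlaps that of Fzd1 (3.14 to 4.29 RPKM). An overlap alone does not settle the order of Fzd7 and Fzd1 there, which was not tested. Fzd7 gave 33.6% of the summed frizzled RPKM in transgenic and 17.8% in wildtype mice, and Fzd4 27.0% in transgenic and 35.7% in wildtype mice. The ratio of Fzd7 to Fzd4 was 1.24 in transgenic and 0.50 in wildtype mice, 2.49 times higher (2.09 to 2.97).

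For the 4 other receptors compared with Fzd4 no difference in proportion was resolved. Set against Fzd4, the ratio in transgenic over wildtype mice was 1.15 for Fzd1 (0.947 to 1.41), 1.20 for Fzd6 (0.962 to 1.51), 1.14 for Fzd2 (0.856 to 1.54) and 0.804 for Fzd5 (0.640 to 1.01), and each interval holds 1. Fzd1 had 11.6 RPKM in transgenic and 3.68 RPKM in wildtype mice, and Fzd6 had 8.87 RPKM in transgenic and 2.71 RPKM in wildtype mice. Fzd2, Fzd3, Fzd5 and Fzd8 ranged over 3.09 to 4.94 RPKM in transgenic and 1.22 to 1.59 RPKM in wildtype mice. On the library-size scale all 8 receptors at the minimum level had positive log2 changes, as did 11499 of the 13118 genes tested. On the relative scale those other than Fzd7 lay between -0.05 (Fzd5, whose sign turned) and 0.42 (Fzd6). Fzd10 had 104 transgenic and 0 wildtype reads, at least 10.3-fold higher than the limit of 3 reads (exact 95% lower limit 8.22), and Fzd9 had 24 and 2 reads.

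Fzd7 was also read against epithelial genes. Its ratio to the basal keratin gene Krt5 was 0.778 in transgenic and 0.740 in wildtype mice, 1.05 times (0.843 to 1.31), and to Krt8 it was 0.867 times (0.719 to 1.04), while to the basal keratin gene Krt14 it was 2.89 times higher (2.26 to 3.68). The basal and myoepithelial markers summed to 492 to 500 RPKM in transgenic and 153 to 159 RPKM in wildtype columns. The luminal markers, Krt8 among them, summed to 499 to 502 RPKM in transgenic and 134 to 140 RPKM in wildtype columns. The basal sum was 3.20-fold and the luminal sum 3.68-fold higher in transgenic mice, beside 6.78-fold for Fzd7. The ratio of Fzd4 to the endothelial gene Pecam1 was 0.656 times its wildtype value in transgenic mice (0.572 to 0.753). These pairs, 39 in all, were chosen with the values in view and are given as descriptions.

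The co-receptors Lrp5 and Lrp6, which pair with frizzled in canonical signalling, were not called. Lrp6 had 20.3, 20.3 and 21.2 RPKM in transgenic columns and 10.3, 10.8 and 10.3 RPKM in wildtype columns, with log2 changes of 0.91 on the library-size and -0.21 on the relative scale. Lrp5 had 20.4 RPKM in transgenic and 7.59 RPKM in wildtype mice, with changes of 1.32 and 0.21. Lrp5 gained on Lrp6 by 1.37 times (1.25 to 1.50) in transgenic mice, and the mean levels of the 2 were close there.

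Lgr4 (ENSMUSG00000050199, chr2:109917647-110014257, plus strand), a receptor for R-spondins, was the member with the lowest log2 change of the 25. It had 7.94, 8.33 and 8.20 RPKM in transgenic columns, against 34.8, 35.3 and 35.6 RPKM in wildtype columns. In wildtype mice it had the highest level of all 44 members. Even in reads it was lower in transgenic mice, with 1695 reads against 2172 in the shallower wildtype library. The ratio was 0.232 (0.217 to 0.247), or 0.101 on the relative scale (0.0945 to 0.107). At -1.98 the log2 change fell just short of the threshold on the library-size scale, and at -3.09 it passed on the relative scale. Against Lrp6, Lgr4 was 0.118 times its wildtype ratio in transgenic mice (0.108 to 0.128). Lgr5, the stem cell marker of intestine and hair follicle, had 0.924 RPKM in transgenic and 0.651 RPKM in wildtype mice. Lgr6, from the list of other receptors, was called higher on the library-size scale, with 8.57 RPKM in transgenic and 0.989 RPKM in wildtype mice and changes of 2.27 and 1.41.

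The secreted antagonists differed in direction. Sfrp1 (ENSMUSG00000031548, chr8:23411502-23449632, plus strand), a Wnt-binding antagonist, had 6.86, 6.74 and 7.25 RPKM in transgenic columns, against 24.8, 22.6 and 25.5 RPKM in wildtype columns. The columns do not overlap, and the ratio was 0.286 (0.263 to 0.311), or 0.124 on the relative scale (0.114 to 0.135). Its log2 change was -1.67 on the library-size scale, which is not called, and -2.76 on the relative scale, which is. Sfrp2, an antagonist of stromal cells, had 14.1, 13.5 and 14.6 RPKM in transgenic columns and 9.97, 9.70 and 11.2 RPKM in wildtype columns. Its log2 changes were 0.42 and -0.69, so that its direction depends on the scale. Exons of Gm26771 on the other strand overlap 16.1% of it. Within the family Sfrp1 gave 28.6% of the summed RPKM in transgenic and 65.9% in wildtype mice, and Sfrp2 57.9% in transgenic and 27.9% in wildtype mice. The ratio of Sfrp1 to Sfrp2 was 0.209 times its wildtype value in transgenic mice (0.177 to 0.247). Sfrp5 and Sfrp4 stayed under 2 RPKM, with 1.76 and 1.52 RPKM in transgenic and 1.56 and 0.761 RPKM in wildtype mice.

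Dkk3, a member of the Dickkopf family that is not a typical blocker of Lrp6, was called higher on the library-size scale. It had 7.54, 8.12 and 8.07 RPKM in transgenic columns, against 0.512, 0.937 and 0.938 RPKM in wildtype columns. It was 9.94-fold higher (6.83 to 15.0), with log2 changes of 2.31 and 1.49. Against Dcn, a gene of fibroblasts, Dkk3 was 0.892 times its wildtype ratio in transgenic mice (0.598 to 1.38), an interval that holds 1, while Sfrp2 was 0.123 times (0.101 to 0.149). Dcn is only 1 of 10 fibroblast markers, which summed to 1352 to 1359 RPKM in transgenic and 85.9 to 88.4 RPKM in wildtype columns. This sum was 15.6-fold higher in transgenic mice, beside 9.94-fold for Dkk3. Dkk1, the classical inhibitor of Lrp5 and Lrp6, was the one of the 25 members at the minimum level whose columns overlapped, with 1.54, 2.84 and 2.66 RPKM in transgenic columns and 3.30, 3.06 and 2.36 RPKM in wildtype columns. Its ratio was 0.806 (0.615 to 1.07), not separable from 1 at this depth on the library-size scale, and 0.351 (0.267 to 0.464) on the relative scale. Dkk1 made up 21.0% of the summed Dkk RPKM in transgenic and 64.4% in wildtype mice, and Dkk3 71.0% in transgenic and 17.6% in wildtype mice. Dkk2 had 0.871 RPKM in transgenic and 0.592 RPKM in wildtype mice, and Dkk4 had 1 transgenic and 3 wildtype reads.

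**Figure D4:**
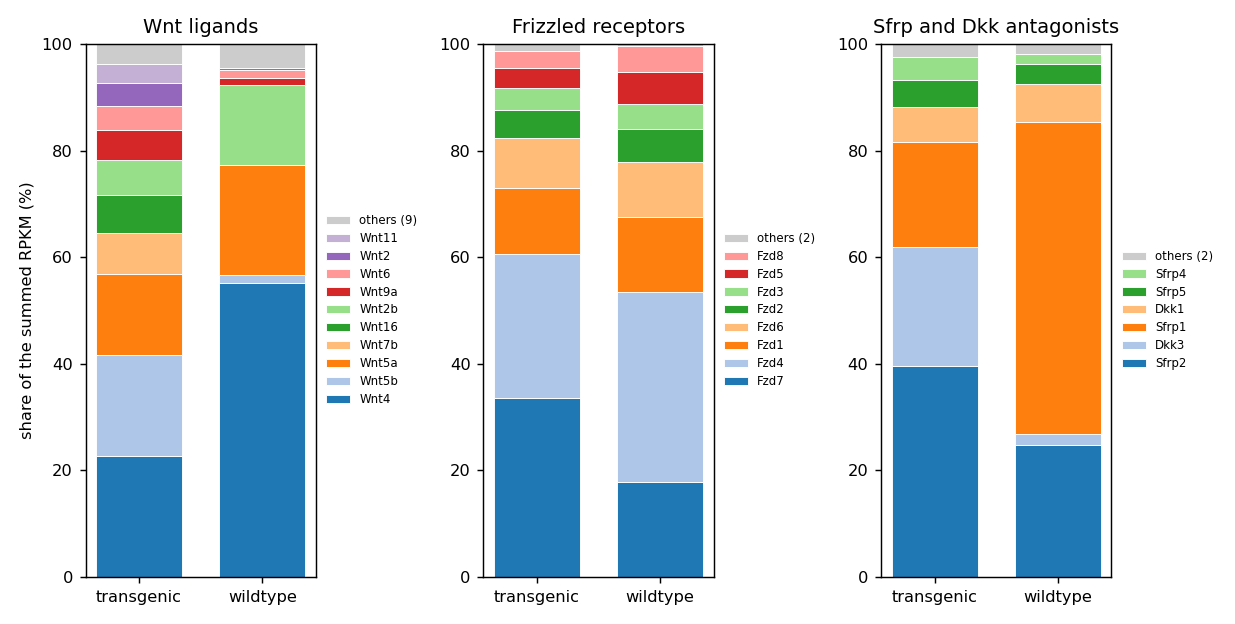
Share of the summed RPKM of the Wnt ligands, the frizzled receptors, and the Sfrp and Dkk antagonists together, in transgenic (left bar) and wildtype mice (right bar). Wnt4 takes 22.6% in transgenic and 55.1% in wildtype mice, Fzd7 33.6% and 17.8%, and Sfrp1 19.6% and 58.7% of the antagonists.

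Ratios between families within a library are free of the scaling. The summed ligand RPKM was 1.12 times the summed Sfrp and Dkk RPKM in transgenic mice (1.10 to 1.15 over columns) and 0.222 times in wildtype mice (0.210 to 0.235). The frizzled sum was 3.88 times the Sfrp sum in transgenic and 0.710 times in wildtype mice. The ligand sum stood at 0.422 of the frizzled sum in transgenic and 0.351 in wildtype mice, a much smaller difference. Over all 44 members the RPKM summed to 297 in transgenic and 134 in wildtype mice. This is a ratio of 2.22 on the library-size scale and 0.963 on the relative scale, so that its direction turns with the scale.

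**Figure D5:**
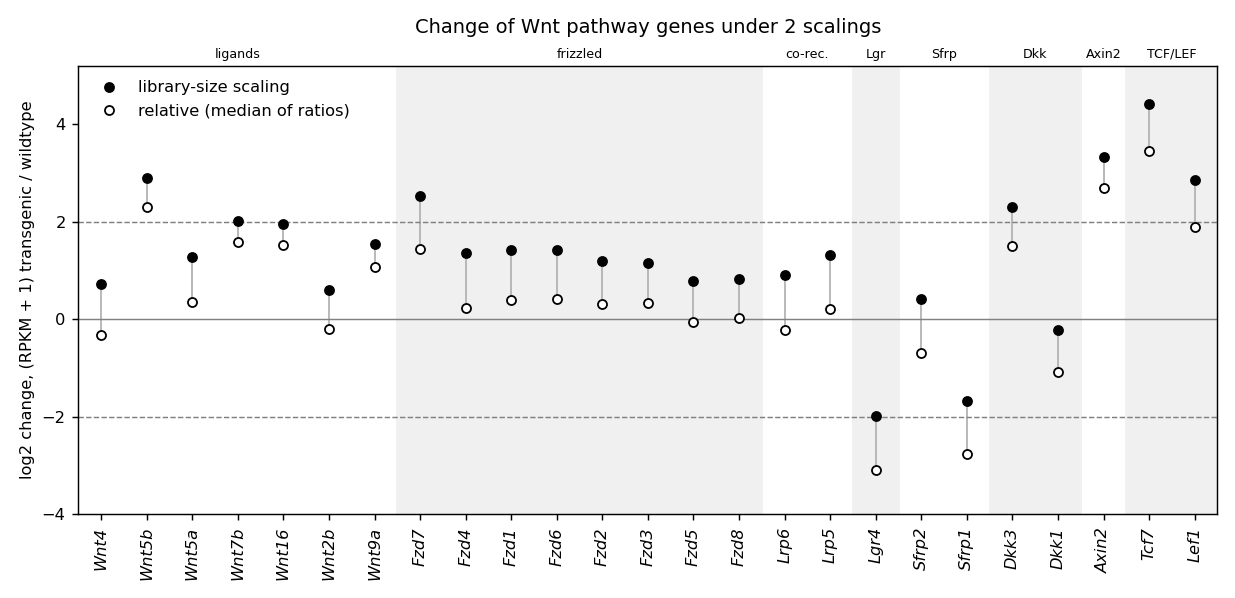
Change of the 25 members at the minimum level, as log2 of (RPKM + 1) in transgenic over wildtype mice, on the library-size scale (filled) and the relative scale (open), with dashed lines at the threshold of 2. Tcf7, Axin2 and Wnt5b lie above the upper line on both scales, and Lgr4 and Sfrp1 lie under the lower line on the relative scale.

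The pathway beyond these members was read from lists of 61 other Wnt pathway genes, of which 51 reached the minimum level. On the library-size scale 16 were called higher and 0 lower, beside 16.1% and 1.23% of all genes. On the relative scale 1 was called higher, Apcdd1, and 1 lower, Dkkl1, beside 4.33% and 3.52% of all genes. The median log2 change was 1.65 and 0.60 on the relative scale, beside 1.06 and 0.06 over all genes. Apcdd1, a membrane-bound Wnt inhibitor, had 13.3 RPKM in transgenic and 0.409 RPKM in wildtype mice, with changes of 3.34 and 2.59. Dkkl1, a Dickkopf-like protein best known from testis, had 6.74 RPKM in transgenic and 16.6 RPKM in wildtype mice, with changes of -1.18 and -2.26.

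In the ligand supply list Wls, the carrier that takes Wnts to the cell surface, had 8.78 RPKM in transgenic and 15.0 RPKM in wildtype mice and changes of -0.71 and -1.81, neither of them called. The R-spondin Rspo1 had 233 transgenic and 0 wildtype reads and was called higher on the library-size scale. Of the 23 cytoplasmic and nuclear genes, 4 were called higher on the library-size scale (Dvl2, Bcl9, Bcl9l and Tle3), a share near the 16.1% of all genes, and 0 in either direction on the relative scale, beside 4.33% higher and 3.52% lower of all genes. Ctnnb1, which encodes β-catenin, had 70.9 RPKM in transgenic and 29.2 RPKM in wildtype mice, with a relative change of 0.08.

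Among 7 planar polarity genes at the minimum level, 4 were called higher on the library-size scale (Vangl1, Celsr1, Prickle1 and Scrib) and 0 on the relative scale, where their median was 1.15, beside 16.1% and 4.33% of all genes called higher on these scales. Among 6 Wnt target genes at that level, 4 were called higher on the library-size scale (Nkd2, Myc, Cd44 and Procr) and 0 on the relative scale, beside the same 16.1% and 4.33%, with a relative median of 1.48. Nkd2, a feedback antagonist, had 5.22 RPKM in transgenic and 0.242 RPKM in wildtype mice. Ccnd1, which encodes cyclin D1, had 60.5 RPKM in transgenic and 22.1 RPKM in wildtype mice, with changes of 1.41 and 0.25. Celsr2, the polarity gene with the highest level, had 29.9 RPKM in transgenic and 6.88 RPKM in wildtype mice, with changes of 1.97 and 0.86. Among the other receptors Ryk, a Wnt receptor with an inactive kinase domain, had 12.7 RPKM in transgenic and 4.97 RPKM in wildtype mice, with changes of 1.20 and 0.14. Ror2, a receptor of Wnt5a, had 3.58 RPKM in transgenic and 0.135 RPKM in wildtype mice, with changes of 2.01 and 1.48.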

How the data were processed

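RNA from mammary tissue slides was sequenced after depletion of ribosomal RNA. The authors aligned the reads to GRCm38 with TopHat2 (2.0.7) and deposited RPKM values for 21950 genes, estimated with SAMMate on Ensembl gene models. These RPKM carry a correction for depth and none for composition. The mean columns and log2 fold changes that the authors deposited beside them hold their own comparison and were not used.

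Here depth and reads were recovered from the steps of the RPKM values with Python (3.11.15), numpy (2.4.6), pandas (2.3.3) and scipy (1.17.1), at lengths of up to 120000 bases and to within 1e-05 of a whole read. Reads were whole for 8699 genes at the exonic length of the reference and for 9609 genes at another length, and 3642 genes were at 0. Of the members with reads, 28 were whole at the reference length and 14 at another. For 6 of these (Wnt10b, Sfrp4, Fzd8, Fzd3, Wnt11 and Fzd4) the length was far shorter, so that their reads are the smallest that the values allow. The recovery was tested on simulated data. The reference annotation holds 21748 of the IDs and gave the coordinates, and 27 gene names held as dates were restored from them. Exons of a gene on the other strand overlap those of 8 members (Fzd5, Sfrp2, Lef1, Wnt11, Wnt7b, Wnt5a, Axin2 and Fzd6), up to 17.8% of the exonic bases in Fzd5, and reads of such pairs cannot be told apart where counting ignores strand.

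Because each genotype was treated as 1 library, the planned test across genes was replaced by a threshold on the log2 change of the mean RPKM. It used a pseudocount of 1, a minimum mean of 2 RPKM and a size over 2. A pseudocount understates the change of weakly expressed genes. Intervals are exact for the level (Poisson) and for a ratio of reads (Clopper-Pearson), at 95%, and pairs of genes were compared by the conditional odds ratio of their reads. Reads without molecular identifiers are not independent molecules, and all intervals cover counting error only. Where a gene had 0 wildtype reads, the bound was set against 3 reads over the summed wildtype library. Per gene, the mean of the 3 columns is used.

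Members, lists and pairs were chosen with earlier results of these data known. The text names all 44 members, and from each pathway list the genes called on either scale or with the highest level, plus TCF/LEF and Axin relatives of members. Marker genes are named where a pair uses them. The lists of other Wnt pathway genes were ligand supply, other receptors, other secreted antagonists, cytoplasmic and nuclear genes, planar polarity genes and target genes. The marker lists other than T cells gave the following counts called higher on the library-size and the relative scale, with 0 lower, beside 16.1% and 4.33% of all genes: adipocytes 10 and 8 of 10, endothelium 2 and 0 of 8, luminal epithelium 5 and 1 of 10, hormone-sensing luminal cells 2 and 2 of 6, basal cells 2 and 0 of 10, fibroblasts 9 and 5 of 10, B cells 9 and 8 of 10, and skin and hair follicle 1 and 1 of 2. The skin list summed to 67.6 to 72.2 RPKM in transgenic and 3.88 to 5.39 RPKM in wildtype columns, of which Alox12e, its called gene, had a mean of 66.4 RPKM in transgenic and 0.0739 RPKM in wildtype mice. Krt1, Lor, Krt71 and Krt33b had 10, 8, 14 and 1 transgenic reads and 0 wildtype reads, and Flg, Krt25 and Krt27 were at 0 in both genotypes. Alternatives were other scalings, pseudocounts, filters and thresholds, and leaving out each column.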

Additional observations from a re-analysis of the deposited data

How the results depend on the processing

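The number of members called higher (7) depended on the threshold and the scaling, with 16 at a threshold of 1, 3 under median-of-ratios factors, 3 under trimmed-mean factors and 4 with the 9 milk protein genes left out of the library size. Members called lower (0) became 2 under each of these scalings and at a threshold of 1, and 1 at a pseudocount of 0.5 or 0.1. The members' median log2 change (1.32) was 0.33 under median-of-ratios factors, 0.35 under trimmed-mean factors, 0.61 without milk genes, 0.87 with no filter, 1.38 at a minimum of 5 RPKM, and 1.40 and 1.60 at pseudocounts of 0.5 and 0.1. Leaving out a column gave 6 to 7 members higher, 0 lower and a median of 1.30 to 1.34. Of the other pathway genes, 16 were called higher, against 1 under either scaling by ratios, 2 without milk genes and 37 at a threshold of 1, and 15 to 18 with a column left out. Called lower were 0, against 1 under either scaling by ratios and 1 at a threshold of 1. Tcf7, Axin2 and Wnt5b were called under every scaling and pseudocount tried, Lef1 was lost under both scalings by ratios, and Fzd7, Dkk3 and Wnt7b were lost under all 3 scalings. Fzd5, Lrp6, Sfrp2, Wnt2b and Wnt4 changed sign under both scalings by ratios, and Sfrp2 without milk genes. Wnt16 and Wnt9a were called higher and Lgr4 lower at both smaller pseudocounts. No paired analysis was possible because each genotype counts as 1 library, which leaves no spread for a test. The shallower wildtype library limits every ligand with few reads.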
